A study of Mus musculus with 3 samples.

Results

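The 5 pigment cell genes Pmel, Mlana, Dct, Tyr and Tyrp1 were read in RNA of sorted mouse skin mast cells. They were found in the deposited expression table by gene symbol, and all 5 of them were present among 20677 listed genes. The table holds 3 libraries, 1 for each embryonic origin of the labelled cells, in FPKM (a fragment count divided by transcript length and by library size). Every library came from skin mast cells of mice 1 week after birth on the mixed background C57BL/6xCD1xFVB, which carried the yellow fluorescent reporter EYFP. In the library named early EMP (erythro-myeloid progenitor), the reporter was switched on in Csf1rCre/EYFP mice by 4’OHT given at embryonic day 8.5. The late EMP library came from Runx1Cre/EYFP mice given 4’OHT at day 8.5, and the fetal HSC (haematopoietic stem cell) library from the same line given it at day 9.5. The Cre driver therefore differs between early EMP and both other libraries, and cannot be told apart from origin in those comparisons. The labels used here do not say which gate was used for sorting, nor how many animals of which sex were taken.

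Melanocytes are the pigment cells of skin and hair, and descend from the neural crest rather than from blood progenitors. They build melanin in melanosomes, organelles related to lysosomes, and the transcription factor Mitf drives most of their pigment genes. Mast cells also depend on Mitf and on the receptor Kit, so both cell types share these regulators while pigment synthesis belongs to melanocytes. CD1 and FVB are albino strains that carry an inactivating change in the coding sequence of Tyr, and the labels do not state the coat colour of the animals.

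The label of the sorted cells held against mast cell markers. All 10 markers in the list were present in every library, from 38.8 to 59.0 FPKM for Fcer1a, which binds IgE as part of its receptor, up to the chymase Cma1 at 63894 to 80925 FPKM. None of the 10 was 2-fold apart in any comparison, as was so for most genes. Of all genes at 1 FPKM or more in at least 1 library, 80.5% were within 2-fold for late over early EMP. The share was 74.0% for fetal HSC over early EMP and 88.3% for fetal HSC over late EMP. Of the 20677 listed genes, 3506 were listed at 0 in early EMP, 2078 in late EMP and 5356 in fetal HSC. Depth is not stated. The spacing of low values implied 14.8, 15.3 and 16.9 M fragments for early EMP, late EMP and fetal HSC, an imprecise estimate that was used to judge how many fragments stand behind a level and how far counting error reaches. Each origin has 1 library, so no spread between replicates exists, no test was made, and every difference below compares libraries.

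Promoter sequences from RefSeq (build GRCm38.p6) matched 3 of the 5 genes, the melanin enzymes Dct, Tyr and Tyrp1. They are shown because the M-box, an element that Mitf binds, is the textbook link between this factor and the pigment enzymes. In the 250 bases before the annotated start, the M-box core TCATGTG was present in all 3, searched on both strands; it contains the shorter E-box CATGTG. Windows of 30 bases around the match on the gene's own strand are given 5′ to 3′ with the core in capitals.
Dct: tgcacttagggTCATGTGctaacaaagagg
Tyr: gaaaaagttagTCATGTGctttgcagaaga
Tyrp1: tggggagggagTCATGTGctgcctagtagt
The Dct window lies at chr14:118052379-118052408 on the minus strand, and its core begins 151 bases before the start. The Tyr window lies at chr7:87493516-87493545 on the minus strand, with the core 22 bases before the start. The Tyrp1 window lies at chr4:80834155-80834184 on the plus strand, with the core 47 bases before the start listed in the promoter table. The RefSeq gene itself begins upstream of that, at 80834123, so 90 of the 250 bases searched and the whole window lie inside it, and the window overlaps a GENCODE exon. The run GTCATGTGCT, 10 letters long, was common to the 3 windows. Of 32851 promoter windows of the same length, 3.25% held TCATGTG, 12.3% held CATGTG and 0.155% held the shared run, which was picked after the sequences were seen. The M-box was chosen for its known link to these enzymes, so its presence in all 3, and a shared run around it, is no independent result.

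The full upstream stretch of Dct (chr14:118052247-118052496, minus strand, 250 bases) is printed because it held a further M-box core on the other strand, 232 bases before the start. Both cores are in capitals.
Dct upstream: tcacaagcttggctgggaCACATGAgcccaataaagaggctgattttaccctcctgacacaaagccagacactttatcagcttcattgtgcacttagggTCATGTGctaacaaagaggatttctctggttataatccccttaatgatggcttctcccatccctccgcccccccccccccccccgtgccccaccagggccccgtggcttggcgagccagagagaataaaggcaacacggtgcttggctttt
The Sox-type motif ACAAAG occurred in Dct at 192 and 141 bases before the start and in Tyrp1 at 190 bases on the other strand, and in 16.5% of all windows. The E-box CACGTG was in none of the 3 stretches and in 6.02% of all windows. Among the other melanocyte markers, 5 had a promoter entry, and those of Mc1r, Slc24a5 and Trpm1 held TCATGTG. A match describes the letters only and is not a measured binding site.

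**Figure D1:**
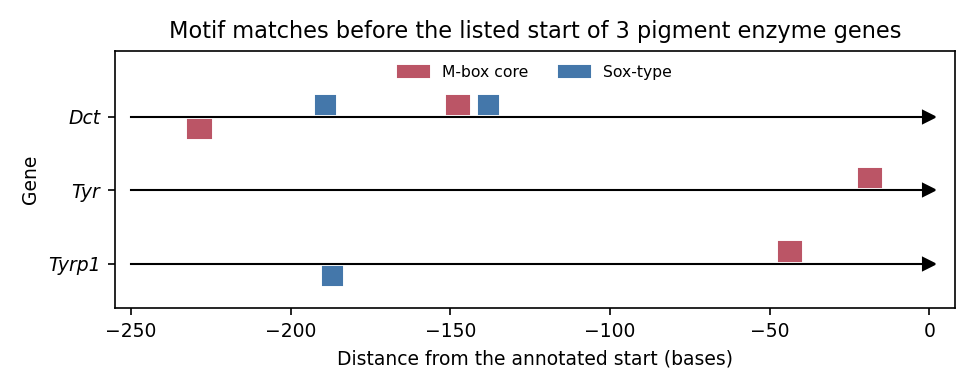
Positions of motif matches in the 250 bases before the annotated start (x axis, bases; 0 is the start, arrowhead) of Dct, Tyr and Tyrp1, with boxes above the line for the gene's strand and below it for the other strand. Each gene holds an M-box core on its own strand, at 151, 22 and 47 bases before the start; for Tyrp1 the RefSeq gene begins further upstream and contains that site.

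Pigment gene RNA was lowest in the early EMP library and highest in the fetal HSC library for each of the 5 genes. Their summed level was 1.59 FPKM in early EMP, 13.8 in late EMP and 40.7 in fetal HSC. Against Kit in the same library, which both cell types express, the sum was 0.384%, 2.27% and 10.05%. The rising order early EMP, late EMP, fetal HSC was seen in 5 of 5 pigment genes and in 16.4% of the 14412 genes at 1 FPKM or more in at least 1 library. All 5 pigment genes passed that filter, Tyr only through its fetal HSC value. The first step of Tyr, 0.34 to 0.37 FPKM or about 30 to 33 implied fragments, is too small to be told from no change. The 5 genes were chosen with earlier results of these data known, so their count is not a blind one. In bulk RNA, fewer cells of a type and less RNA per cell cannot be told apart.

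**Figure D2:**
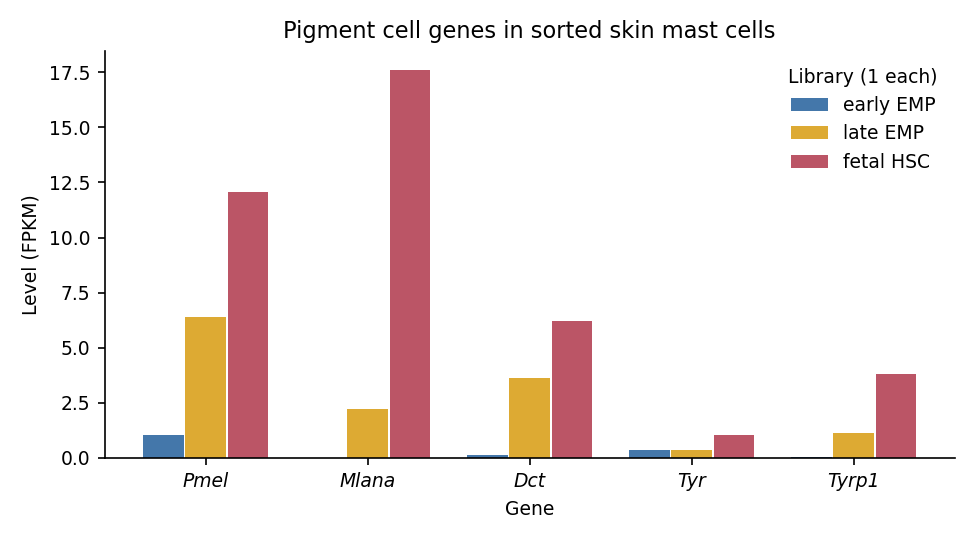
Level of each pigment gene (y axis, FPKM, linear from 0) in each library (early EMP blue, late EMP yellow, fetal HSC red), 1 bar per library and no error bar because there is 1 library each. The fetal HSC bar is the tallest for every gene, and Mlana goes from a listed 0 to 17.6 FPKM.

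Pmel and Mlana are structural proteins of the melanosome, and held the highest levels of the 5 in the fetal HSC library. Pmel forms the amyloid fibrils on which melanin is laid down. Pmel (chromosome 10, 128695888 to 128720238, GRCm38) was at 1.05 FPKM in early EMP, 6.40 in late EMP and 12.1 in fetal HSC, ratios of 6.10 and 11.5 to early EMP. In the fetal HSC library this level lay above 75.7% of the genes with a symbol, against 41.6% in early EMP. Its difference between late EMP and fetal HSC was 1.88-fold. The Pmel row holds a RefSeq transcript and an unnamed transcript, whose exons the table does not list. The RefSeq gene also overlaps Cdk2, Rab5b and Dgka, and the strand setting of the counting is not given, so reads of these genes could enter its value. Cdk2, a cell cycle kinase read from the other strand, was at 66.2, 53.3 and 48.95 FPKM, the opposite order. Rab5b was at 12.3, 27.5 and 10.1 FPKM and Dgka at 2.84, 4.47 and 4.46 FPKM, neither in the order of Pmel; their part in the Pmel value was not tested.

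Mlana (also called MART-1) is a melanosomal membrane protein that takes part in the maturation of Pmel. Mlana (chromosome 19, 29697541 to 29708447) was listed at 0 in early EMP, at 2.23 FPKM in late EMP and at 17.6 FPKM in fetal HSC. It changed place most among the 5: it was the lowest in early EMP, the third in late EMP and the highest in fetal HSC, where it lay above 81.5% of genes with a symbol. Fetal HSC exceeded late EMP by 7.89-fold, or about 228 against 26 implied fragments. No ratio is given against early EMP, since a listed 0 can be a failed estimate: Ndufs5, a respiratory chain subunit that all cells use, is also listed at 0 there while at 20 FPKM or more in both other libraries. Such cases were few. Of 9735 genes with a symbol at 1 FPKM or more in both other libraries, 41 were listed at 0 in early EMP, Mlana among them. At 5 FPKM or more it was 1 of 6434, Ndufs5. No other gene overlaps Mlana in RefSeq.

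Dct, Tyr and Tyrp1 are related copper- or zinc-dependent enzymes of melanin synthesis. Dct, dopachrome tautomerase, acts on the brown-black eumelanin branch. Dct (chromosome 14, 118012790 to 118052246) was at 0.15 FPKM in early EMP, 3.63 in late EMP and 6.21 in fetal HSC. About 5, 115 and 216 implied fragments stand behind these values, so late EMP and fetal HSC, 1.71-fold apart, lie far above early EMP. Tyrp1 stabilises tyrosinase and also acts in eumelanin synthesis. Tyrp1 (chromosome 4, 80834123 to 80851736) was at 0.05, 1.12 and 3.82 FPKM, where the early EMP value is worth about 2 fragments and is close to none. Fetal HSC exceeded late EMP by 3.41-fold. Tyrosinase, encoded by Tyr, catalyses the rate-limiting first step of melanin synthesis. Tyr (chromosome 7, 87424771 to 87493512) was at 0.34 FPKM in early EMP, 0.37 in late EMP and 1.05 in fetal HSC. Its levels in early and late EMP, about 30 and 33 implied fragments, were nearly the same, and fetal HSC stood 2.84-fold above late EMP. The albino change in the coding sequence cannot be seen in FPKM values.

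The makeup of the pigment gene RNA differed between the libraries. Pmel held 66.0% of the summed level in early EMP, 46.5% in late EMP and 29.6% in fetal HSC. Mlana held none, 16.2% and 43.2%. Tyr held 21.4%, 2.69% and 2.58%, and Dct 9.43%, 26.4% and 15.2%, so Tyr stood apart in early EMP and was the least of the 5 in both other libraries. Tyrp1 held 3.14%, 8.15% and 9.38%. The early EMP shares rest on few fragments. The order of levels was Pmel, Tyr, Dct, Tyrp1 and Mlana in early EMP, Pmel, Dct, Mlana, Tyrp1 and Tyr in late EMP, and Mlana, Pmel, Dct, Tyrp1 and Tyr in fetal HSC. With 1 library each, no neighbours in these orders can be separated by a spread between samples.

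Differences were also set on a log2 scale after 1 FPKM was added to each value, with 2-fold as the limit; low genes look less changed on this scale than in plain FPKM. For late EMP over early EMP, 4 of 5 pigment genes passed the limit upward and none downward, beside 8.65% higher among all genes tested. Dct differed by 2.01, Pmel by 1.85, Tyrp1 by 1.01 and Tyr by 0.03. Mlana is counted as higher through its listed 0. For fetal HSC over early EMP the count was again 4 of 5 higher, beside 8.19%, with Pmel at 2.67, Dct at 2.65, Tyrp1 at 2.20 and Tyr at 0.61. These comparisons share the early EMP library, so their counts are not independent. For fetal HSC over late EMP, which share the Runx1 driver, 2 of 5 were higher and none lower, beside 3.46%. Mlana differed by 2.53 and Tyrp1 by 1.18, while Pmel at 0.82, Dct at 0.64 and Tyr at 0.58 stayed under the limit. The medians of the 5 genes were 1.69, 2.65 and 0.82 in the order of these comparisons, or 1.43, 2.42 and 0.73 without Mlana, against 0.00, -0.11 and -0.10 over all genes tested. With a pseudocount of 5 FPKM in place of 1, none of the 5 passed 2-fold for late EMP over early EMP and 1 did for fetal HSC over late EMP. With 0.1 FPKM the counts were 4, 5 and 3. Among genes with a symbol whose highest value was under 20 FPKM, as for these 5, the higher shares were 8.80%, 9.14% and 3.50%.

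**Figure D3:**
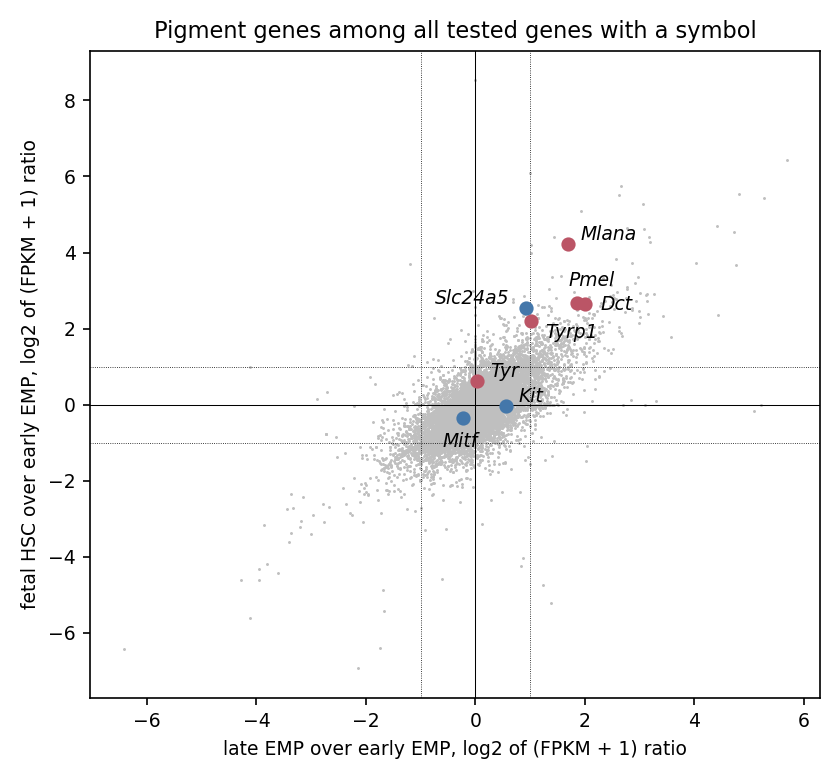
Difference of late EMP over early EMP (x axis) against fetal HSC over early EMP (y axis), both as log2 of the (FPKM + 1) ratio, for every tested gene with a symbol (grey), the pigment genes (red) and Slc24a5, Mitf and Kit (blue); dotted lines mark 2-fold. Both axes share the early EMP library; Pmel and Dct lie side by side, Mlana, placed through its listed 0 in early EMP, lies above them, and Tyr lies inside the 2-fold lines.

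Likeness was measured as the distance between genes in this pair of log2 differences, over 3 libraries and 11529 tested genes with a symbol. The gene nearest to Pmel was Dct, at a distance of 0.16, followed by Cnn3 and Sucnr1. Nearest to Dct were Srp9, Cnn3 and Lockd, with Pmel ranked 4. Nearest to Mlana was Ly6c2 at 0.06, with 0.18, 2.65 and 20.9 FPKM, then Plbd1 and Ifi205. Nearest to Tyrp1 were Pmaip1, Ccne2 and Ccr1, and nearest to Tyr were Lrrc57, Psrc1 and Inafm2. Within 0.25 lay 5 genes for Pmel, 6 for Dct, 1 for Mlana, 9 for Tyrp1 and 368 for Tyr. These numbers depend on the scale. The added 1 FPKM draws a low gene such as Tyr towards no difference, where many genes lie, and the place of Mlana rests on its listed 0 in early EMP. A pair of differences from 3 libraries is met by many unrelated genes.

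Other genes that define melanocytes were mostly near 0. Of 9 in the list, 8 were in the table, and Gpr143 was not analysed here. Their summed level was 3.68 FPKM in early EMP, 7.05 in late EMP and 17.0 in fetal HSC, and 2 of the 8 reached 1 FPKM in any library. Slc24a5, a cation exchanger of the melanosome, was at 1.64, 4.02 and 14.2 FPKM, the same order as the pigment genes, and made most of the sum in late EMP and fetal HSC. Its log2 difference was 0.93 from early to late EMP, 2.53 from early EMP to fetal HSC and 1.60 from late EMP to fetal HSC. Its RefSeq gene overlaps Myef2, which was at 10.85, 11.45 and 12.8 FPKM, and its row also holds an unnamed transcript. Ednrb, the endothelin receptor that melanoblasts need, went the other way in fetal HSC, at 1.33, 2.10 and 0.15 FPKM. Only these 2 genes were high enough for the 2-fold count. Neither was 2-fold apart for late over early EMP, beside 80.5% of all genes within 2-fold. Slc24a5 was higher and Ednrb lower in each other comparison. Over all genes, 8.19% were higher and 17.8% lower for fetal HSC over early EMP. For fetal HSC over late EMP, 3.46% were higher and 8.26% lower.

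The remaining melanocyte markers stayed under 1 FPKM. Trpm1, a cation channel of melanocytes, was at 0, 0.30 and 0.71 FPKM, and Slc45a2, a melanosomal transporter, at 0, 0.34 and 0.58 FPKM. Sox10, the neural crest factor that activates Mitf in melanocytes, was listed at 0 in early EMP and was at 0.05 and 0.39 FPKM in the others. Oca2, a melanosomal anion channel component, was at 0.07, 0.02 and 0.31 FPKM. These 4 were highest in the fetal HSC library. Mc1r, the melanocortin receptor, was at 0.59, 0.22 and 0.66 FPKM, also highest there but close to its early EMP value. Pax3, a neural crest factor upstream of Mitf, was at 0.05 FPKM in early EMP and listed at 0 in both others. They are too low for the 2-fold count and give no call. The share of RNA from melanocytes in the sorted cells was not tested.

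**Figure D4:**
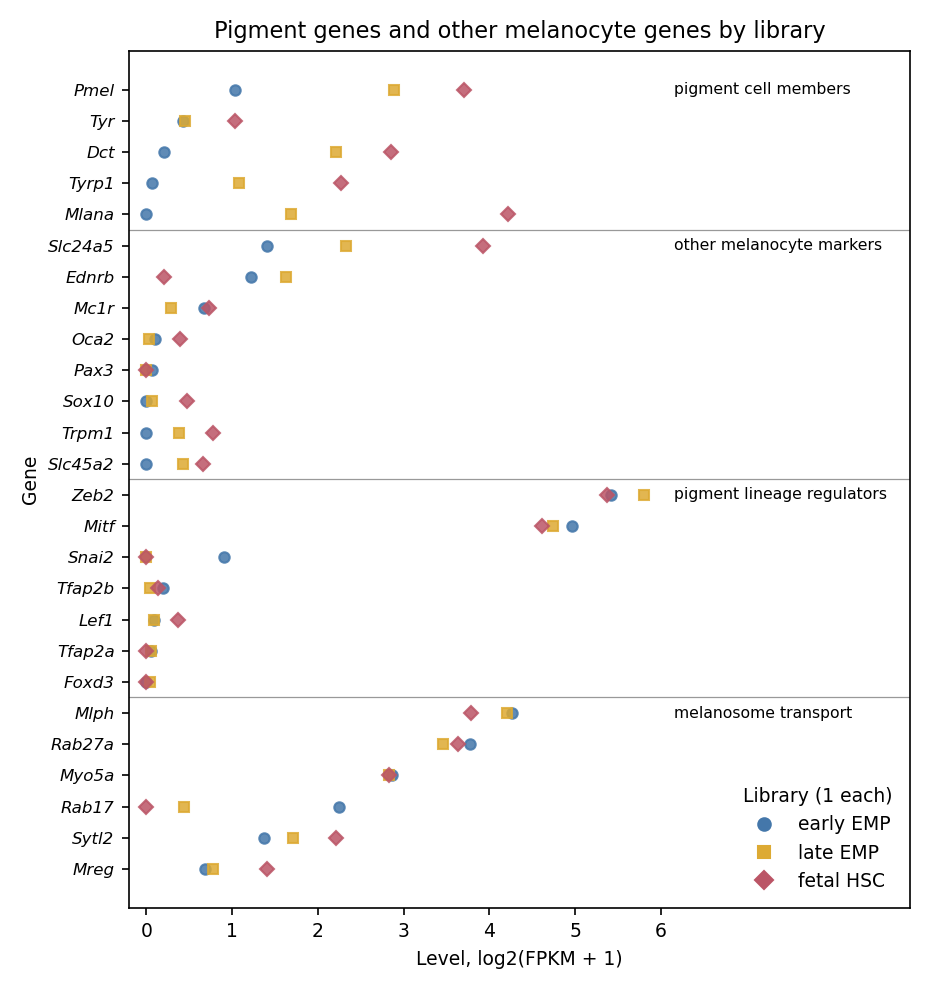
Level of each gene (x axis, log2 of FPKM + 1) in the early EMP (circle), late EMP (square) and fetal HSC (diamond) libraries, grouped by list, 1 point per library. The pigment genes and Slc24a5 spread from left to right in that order, though Tyr is nearly level between early and late EMP. Mitf, Zeb2, Mlph, Rab27a and Myo5a lie within 2-fold and most other lineage factors sit near 0.

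The shared regulators did not follow the pigment genes. Mitf was at 30.2 FPKM in early EMP, 25.8 in late EMP and 23.6 in fetal HSC, the reverse order, with differences of -0.22, -0.34 and -0.12. The table gives 1 value per gene, so the Mitf transcript started from the melanocyte promoter was not separated. Kit was at 414, 606 and 405 FPKM. Among lineage regulators, 9 of 10 were in the table and 2 reached 1 FPKM, Mitf and the repressor Zeb2 at 41.9, 54.6 and 40.2 FPKM; neither was 2-fold apart. Tfap2a, Tfap2b, Foxd3, Lef1 and Snai2 were at 0.87 FPKM or less. Of 11 Mitf relatives and targets outside pigment synthesis, 7 reached 1 FPKM. Acp5, an acid phosphatase, was 2-fold lower in late than early EMP at 0.16 against 1.68 FPKM, beside 10.8% lower over all genes. Ctsk, the protease cathepsin K, was higher in fetal HSC than early EMP at 1.18 against 0.04 FPKM. Tfe3 and Bcl2 were within 2-fold in each comparison, as was Cdk2.

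The organelle machinery that melanosomes share with mast cell granules was expressed in all libraries. Of 19 genes for assembly of lysosome-related organelles, all reached 1 FPKM, 17 were within 2-fold for late over early EMP, beside 80.5% of all genes tested. For fetal HSC over early EMP 19 were, beside 74.0%, and for fetal HSC over late EMP 18 were, beside 88.3%, so most genes of the table also lay within 2-fold. Rab32, a GTPase that directs cargo to melanosomes, was at 109, 148 and 143 FPKM, and Bloc1s1 at 113, 108 and 125 FPKM. Rab38, its close relative in melanocytes, was at 1.00, 3.47 and 0.94 FPKM, past 2-fold above early EMP and above fetal HSC in the late EMP library, and Hps5 was at 3.11, 7.33 and 3.96 FPKM. Rab27a, Mlph and Myo5a, the complex that moves melanosomes along actin, lay within 2-fold in each comparison; Rab27a was at 12.7, 9.96 and 11.4 FPKM. Sytl2, a Rab27a effector, was at 1.58, 2.26 and 3.62 FPKM and Mreg, melanoregulin, at 0.61, 0.71 and 1.64 FPKM, both in the order of the pigment genes but within 2-fold. Rab17 was lower in both other libraries than in early EMP, at 3.73, 0.36 and a listed 0. That 0 is in the fetal HSC library, where listed zeros were most frequent. Of 8 melanosome channels and transporters, 7 were in the table and 3 reached 1 FPKM: Slc24a5, the copper pump Atp7a at 2.84, 5.15 and 5.63 FPKM, which supplies tyrosinase, and the channel Tpcn2 at 2.82, 4.16 and 2.77 FPKM.

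Markers of other skin cells were read beside the pigment genes. Keratinocyte markers, 11 of 12 in the table, summed to 5.71 FPKM in early EMP, 8.77 in late EMP and 6.49 in fetal HSC. The basal keratins were low, with Krt5 at 0.51, 1.10 and 0.31 FPKM and Krt14 at 0, 0.77 and 0.58 FPKM. Krt15, a keratin of the hair follicle bulge, was at 0.04, 0.57 and 3.67 FPKM, the order of the pigment genes. It was the only 1 of the 5 keratinocyte markers at 1 FPKM or more to rise in that order. Perp, a desmosome-associated protein, ran the other way at 3.0, 1.21 and 0.20 FPKM, a difference of -1.74 for fetal HSC over early EMP. Of the 5 keratinocyte markers at 1 FPKM or more, 1 was higher and 1 lower in that comparison, beside 8.19% and 17.8% over all genes. Hair follicle matrix markers, 10 of 12 in the table, summed to 6.28, 6.66 and 5.19 FPKM. Krt71, a keratin of the inner root sheath, was at 0.06, 3.18 and 1.77 FPKM, past 2-fold above early EMP in late EMP and in fetal HSC, while Krt35, a hair keratin, was at 3.34, 1.09 and 1.68 FPKM. Fibroblast markers summed to 1.54, 7.20 and 3.70 FPKM. Col1a2, a collagen I chain, was at 0.06, 1.47 and 1.41 FPKM, likewise past 2-fold above early EMP in both others. Col1a1, at 0.79, 3.0 and 0.87 FPKM, was past 2-fold above early EMP in late EMP only. Col3a1, at 0.18, 1.18 and 0.38 FPKM, was within 2-fold of early EMP in both. Of the 3 fibroblast markers at 1 FPKM or more, 2 were higher in late than early EMP, beside 8.65% of all genes. For fetal HSC over early EMP 1 was higher, beside 8.19%. Of Schwann cell genes, which share the neural crest origin, S100b was at 0.59 FPKM in early EMP and listed at 0 in both others. Egr2, a Schwann cell factor also induced in activated immune cells, was at 42.9, 89.2 and 54.7 FPKM. Macrophage markers, whose cells can take up pigment, summed to 117, 96.1 and 68.0 FPKM, the reverse order, with the complement gene C1qb at 20.4, 13.3 and 3.96 FPKM. Lyz2, the most abundant of them, ran in the order of the pigment genes, at 37.65, 39.78 and 44.81 FPKM. For late over early EMP, 2 of the 9 were higher and 1 lower, beside 8.65% and 10.8% over all genes. For fetal HSC over early EMP, 4 were lower and none higher, beside 17.8% and 8.19%. Of the ligands that act on melanocytes, Kitl was at 0.07 FPKM or less, Edn1 at 0.03 or less and Pomc at 1.15 to 1.65 FPKM. None of these marker sums rose across all 3 libraries; their part in the pigment gene values was not tested.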

How the data were processed

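RNA of skin mast cells was sequenced on an Illumina HiSeq after TRIzol extraction, as the labels' protocols state. Values are FPKM per gene with 2 decimals in 1 table for the 3 libraries, computed by the authors, per the file headers; the submitters' processing notes name Bowtie2, RSEM, mm10 and GRCm38 without versions. Columns were matched to libraries through the sample descriptions. Genes at 1 FPKM or more in at least 1 library were kept (14412 of 20677), and differences were taken after adding 1 FPKM, with 2-fold as the limit. FPKM is a share of the library, so abundant granule genes affect every value.

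The 5 genes and the 15 gene lists were chosen with earlier results of these data known. The naming rule took the pigment genes, the other melanocyte markers, and the most abundant and most different members of each list; not every gene it allows is named, and low list genes such as S100b were chosen after their values were seen. Implied depth came from low values of single-transcript genes, whose spacing shows what 1 fragment is worth: 71.8%, 74.1% and 70.0% lay within 0.15 of a whole fragment at the best step, which was fitted to these values, against 28.6%, 28.6% and 28.9% at the median step tried. Fragment numbers use the GENCODE M21 length of a RefSeq transcript of each gene and cover counting only. Of 17613 identifiers with a symbol, 17569 matched RefSeq (GRCm38.p6), the source of coordinates and promoters. The code for fold calls was checked on simulated counts, which is no test of the calls themselves. Alternatives were pseudocounts, filters, a 4-fold limit and 3 rescalings. Python 3.11.15, numpy 2.4.6, pandas 2.3.3 and matplotlib 3.10.9 were used.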

Additional observations from a re-analysis of the deposited data

How the results depend on the processing

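The count of pigment genes at least 2-fold apart was 4 from early to late EMP, 4 from early EMP to fetal HSC and 2 from late EMP to fetal HSC, taken here as the first, the second and the third comparison. With a pseudocount of 5 FPKM it was 0, 3 and 1. With a 4-fold limit it was 1 for the first and 1 for the third, and stayed at 4 for the second. With a filter at 5 FPKM, which kept 3 of the 5 genes, it was 3, 3 and 1. Under median-of-ratios factors the first was 3, since Tyrp1 lay at the limit. The 3 rescalings left the others at 4 and 2. Without Pmel, a choice made after the data were seen, the counts were 3, 3 and 2. For the other melanocyte markers the counts of 0, 2 and 2 became 1 for the first with a pseudocount of 0.1 FPKM. With a pseudocount of 5 FPKM, and with the filter at 5 FPKM, the second and the third were both 1. With the 4-fold limit they were 1 and 0. None of the 45 single differences of the pigment genes under the rescalings was below 0; pseudocounts and filters cannot turn a sign. Of 99 under all alternatives, 23 fell outside the range that counting error implied by the depth gives at a pseudocount of 1 FPKM. All of them were under a pseudocount of 0.1 or 5 FPKM, which changes the scale itself. Counting error was not worked out on those scales, so these 23 show the effect of the pseudocount only. None of the 45 under the rescalings moved, and a filter cannot change a single difference. No paired analysis was possible because each group has 1 library. Leaving out a library would leave no comparison.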
